A study of Mus musculus with 2 samples.

Results

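The miR-34 and miR-449 family comprises 6 of the 1973 miRNA genes counted in embryonic mouse stomach: Mir34a, Mir34b, Mir34c, Mir449a, Mir449b and Mir449c. The members were taken by gene symbol, through the GENCODE mouse annotation of mm10, and all 6 were found. Small RNA below 30 nt from whole stomach at embryonic day 15.5 was sequenced in 2 libraries. For replicate 1, stomachs of 78 embryos were pooled, and for replicate 2 those of 62, all of the B6NCrl strain, healthy, of both sexes and with no treatment named in the labels. The labels call them biological replicates of 1 group with no second condition, so each pool hides the spread between its embryos and whole organ RNA mixes all cell types of the stomach.

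miR-34 and miR-449 miRNAs repress largely the same messages, because they share their seed, the stretch near the 5′ end that pairs with target RNAs. miR-34a is widely expressed and slows proliferation through cell-cycle messages, and both miR-34 loci are induced by p53. miR-34b and miR-34c, cut from a common primary transcript, and the miR-449 miRNAs, cut from an intron of Cdc20b, are best known from multiciliated cells of airway, oviduct and ependyma, where they repress Cp110 and Notch pathway messages, and from male germ cells. miR-449 has also been described as low in gastric tumours.

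The seed is what makes these genes a family, so the mature 5p sequences of the RefSeq miRNA table (GRCm38.p6) are shown first, 5′ to 3′, with the seed (bases 2 to 8) in capitals. These are the 4 members with a 5p entry in that table. Mir34c, the most abundant member, is shown by its hairpin instead, with the same 7 letters in capitals.
mmu-miR-34a-5p: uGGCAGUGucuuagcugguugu
mmu-miR-34b-5p: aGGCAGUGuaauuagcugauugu
mmu-miR-449a-5p: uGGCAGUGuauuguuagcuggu
mmu-miR-449c-5p: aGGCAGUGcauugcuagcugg
Mir34c hairpin: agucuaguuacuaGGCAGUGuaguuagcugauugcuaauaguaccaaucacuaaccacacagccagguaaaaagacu

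The table matched 5 of the 6 members; the other is Mir449b. The 5p arm of Mir34c and the arms of Mir449b were not among the mature miRNAs compared here. The seed GGCAGUG was found in 4 of the 1738 mature mouse miRNAs of the table (0.23%), and all 4 were family members. Outside the seed the members resembled each other by locus. Over the 21 bases that start 1 base before the seed, compared without gaps in the hairpins, Mir34b and Mir34c had 20 bases in common and Mir449a and Mir449c 18. Mir34a shared 14 with Mir449a but 11 with each of Mir34b and Mir34c. These counts include the seed. In the 13 bases after the seed, Mir34b and Mir34c shared 12 and Mir449a and Mir449c 11. There Mir34a shared 6 with Mir449a and 4 with each of Mir34b and Mir34c. Without gaps, 1 base more or less after the seed puts all later bases out of step. A low count therefore need not mean unlike sequences, and no comparison with gaps was run. The 3p arms of the cluster on chromosome 9 had a seed of their own, AUCACUA, found in these 2 miRNAs alone among the 1738.
mmu-miR-34b-3p: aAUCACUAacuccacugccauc
mmu-miR-34c-3p: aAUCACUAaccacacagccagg
The deposited counts are per gene and do not separate the 5p from the 3p arm.

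The 6 genes lay at 3 loci of mm10. Mir34a (ENSMUSG00000065493) was at chr4:150068454-150068555 on the plus strand, within exon 1 of Gm37795, a transcript of unsettled type, and 18810 bases from the nearest protein-coding gene it did not overlap, Gpr157. Mir34c (ENSMUSG00000065587, chr9:51103034-51103110) and Mir34b (ENSMUSG00000065492, chr9:51103562-51103645) were on the minus strand with 451 bases between them, in intron 1 of a transcript of Btg4 that runs on the opposite strand. Mir449c (ENSMUSG00000076146, chr13:113035983-113036091), Mir449b (ENSMUSG00000078027, chr13:113037419-113037498) and Mir449a (ENSMUSG00000065575, chr13:113037534-113037624) were in intron 2 of Cdc20b on its own strand. Only 35 bases separated Mir449b from Mir449a, and the cluster spanned 1642 bases.

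Reads that matched several places were not assigned to genes. Each of the 9 mature arms of the family in the RefSeq table was found whole in 1 of its 1005 hairpins, its own. The longest run of letters that a member's hairpin shared with any other hairpin, on either strand, was 11 to 14 bases. The rest of the genome was not searched. The opposite-strand column held 0 counts at every member in both libraries.

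The miRNA genes of replicate 1 had 5988677 sense-strand counts in all and those of replicate 2 had 6675498. Levels are given as CPM, the counts scaled to a library total of 1000000, without division by length. A count of 0 allows up to 0.501 CPM in replicate 1 and 0.449 CPM in replicate 2 (3 counts). These limits and all intervals cover counting error only. Markers of the labelled tissue were present in both libraries: the smooth muscle list held 17.8% and 18.3% of counts, the miR-200 list of epithelium 4.35% and 4.32%, and the glandular list 0.418% and 0.486%.

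The family held a small part of the stomach's counted miRNA, 0.0748% in replicate 1 (95% Wilson interval 0.0727 to 0.0770; 4481 counts) and 0.0493% in replicate 2 (0.0476 to 0.0510; 3290 counts). Of the 726 miRNA genes with a count, Mir34c, Mir34a and Mir449a ranked 145, 167 and 181 by mean level, Mir34b 273, and Mir449c and Mir449b 560 and 564, as the plot of the abundance order shows. Of the 466 genes with at least 10 summed counts, the median gene had a mean level of 45.1 CPM. Mir34c, Mir34a and Mir449a exceeded it, and Mir34b did not. The order and the median leave out reads that matched several places, 25.5% of reads in replicate 1 and 27.0% in replicate 2. Genes of miRNAs with several copies can therefore stand too low in them beside the family.

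**Figure D1:**
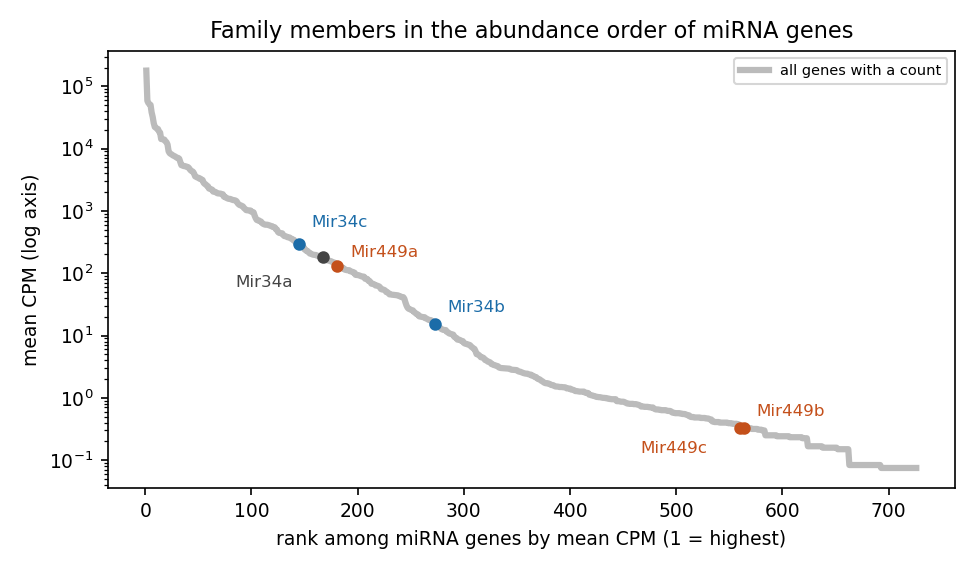
Mean CPM over both libraries (log axis) against the rank of each miRNA gene with a count; the grey line is all such genes and the points are the 6 members. Mir34c, Mir34a and Mir449a lie close together at 293, 180 and 132 CPM, Mir34b at 15.2 CPM, and Mir449c and Mir449b below 1 CPM.

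Mir34a, the member with a locus of its own, had 1307 counts in replicate 1 and 940 in replicate 2, or 218 and 141 CPM. Its mean was 180 ± 54.8 CPM (SD, n = 2). The value of replicate 1 was the higher, as it was for every other member.

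Mir34c, of the cluster on chromosome 9, had 1970 and 1711 counts, or 329 and 256 CPM, and a mean of 293 ± 51.4 CPM (SD, n = 2). Both of its values stood above both values of Mir34a. Mir34b, from the same cluster, had 118 and 72 counts, or 19.7 and 10.8 CPM, with a mean of 15.2 ± 6.31 CPM. The cluster was thus uneven: Mir34c made up 94.3% of its counts in replicate 1 (95% exact interval 93.3 to 95.3) and 96.0% in replicate 2 (94.9 to 96.8). On the log2(CPM + 1) scale, with 1 CPM added to each level, Mir34c exceeded Mir34b by 3.99 in replicate 1 and 4.45 in replicate 2, a mean difference of 4.22 ± 0.32 (SD, n = 2).

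Mir449a had 1079 counts in replicate 1 and 566 in replicate 2, or 180 and 84.8 CPM, with a mean of 132 ± 67.4 CPM (SD, n = 2). Its libraries differed more than those of the members named above, but the wider interval of Mir34b, given below, spans that of Mir449a. Its cluster neighbours were close to the detection limit. Mir449b had 3 counts and 1 count (0.501 and 0.150 CPM), and Mir449c had 4 counts and 0 counts (0.668 CPM and none). Together they made up 0.645% of the cluster's counts in replicate 1 (95% exact interval 0.26 to 1.32) and 0.176% in replicate 2 (0.0045 to 0.979), and Mir449a the remainder. At this depth no difference between Mir449b and Mir449c was detectable, nor was a difference of either gene between the libraries.

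**Figure D2:**
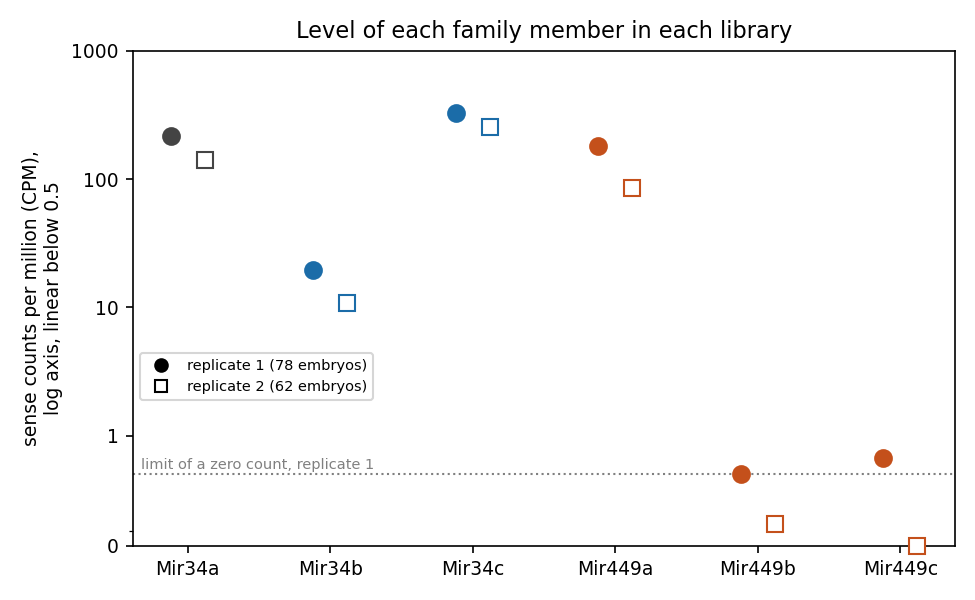
CPM of each member (axis logarithmic above 0.5 and linear below) in replicate 1 (filled circles) and replicate 2 (open squares); the dotted line is the limit that a count of 0 allows in replicate 1. Mir34c, Mir34a and Mir449a lie between 84.8 and 329 CPM, Mir34b between 10.8 and 19.7, and Mir449b and Mir449c at or below 0.668.

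The order of levels was Mir34c, Mir34a, Mir449a, Mir34b, then Mir449c and Mir449b. The 2 values of Mir34a (218 and 141 CPM) overlapped those of Mir449a (180 and 84.8 CPM). Within each library Mir34a was the higher: Mir449a made up 45.2% of their joint counts in replicate 1 (95% exact interval 43.2 to 47.2) and 37.6% in replicate 2 (35.1 to 40.1). Mir34c against Mir34a, and Mir449a against Mir34b, had values that did not overlap. The order rests on counted reads, and how efficiently each miRNA was ligated and sequenced was not measured.

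Compared by locus, the cilia-linked clusters stood on either side of Mir34a. Mir34b and Mir34c together had 349 and 267 CPM, above Mir34a by 0.67 in replicate 1 and 0.92 in replicate 2 on the log2(CPM + 1) scale, a mean of 0.80 ± 0.17 (SD, n = 2). The Mir449 cluster had 181 and 84.9 CPM, and its difference from Mir34a was -0.27 in replicate 1 and -0.72 in replicate 2, a mean of -0.49 ± 0.32. Of the family's counts, Mir34a held nearly the same share in both libraries, 29.2% (95% exact interval 27.8 to 30.5) and 28.6% (27.0 to 30.1). The share of Mir34b and Mir34c was 46.6% (45.1 to 48.1) in replicate 1 and 54.2% (52.5 to 55.9) in replicate 2, and that of the Mir449 cluster 24.2% (23.0 to 25.5) and 17.2% (16.0 to 18.6).

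A ratio of a cluster to Mir34a within a library does not depend on how libraries are scaled. Mir34b and Mir34c had 1.598 counts per Mir34a count in replicate 1 and 1.897 in replicate 2, and the log2 ratio of these values was 0.25 (95% exact interval 0.09 to 0.40). The Mir449 cluster had 0.831 and 0.603 counts per Mir34a count, a log2 ratio of -0.46 (-0.66 to -0.27). Against Mir34b and Mir34c the Mir449 cluster had 0.520 and 0.318, a log2 ratio of -0.71 (-0.89 to -0.53). Between the pools the clusters therefore went opposite ways relative to Mir34a by more than counting error. With 1 library per pool these intervals hold no spread between pools of the same kind.

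**Figure D3:**
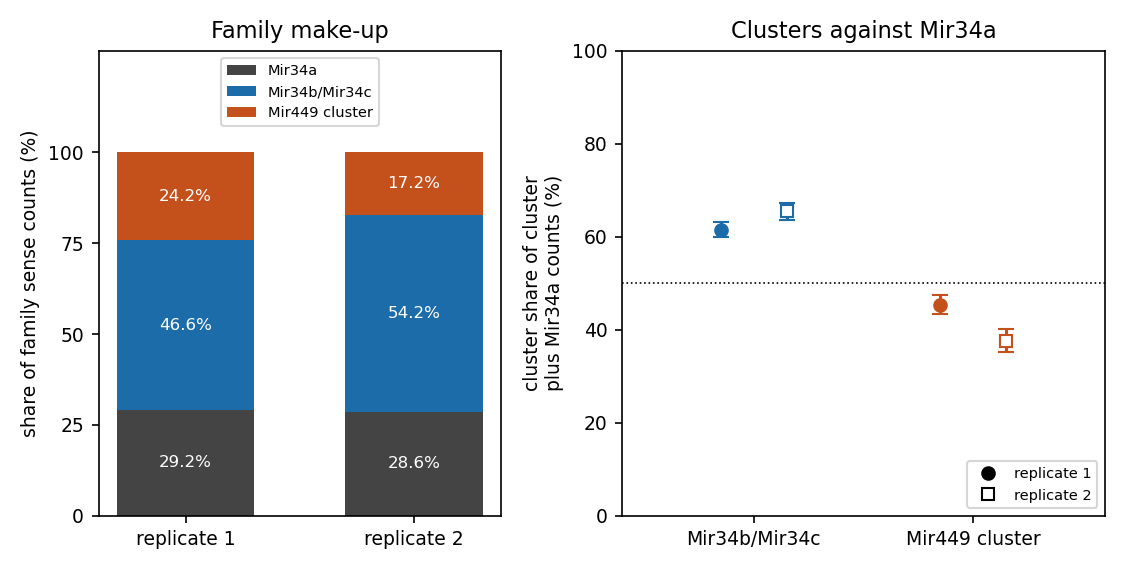
Left, share of the family's sense counts (%) held by Mir34a, the Mir34b and Mir34c cluster and the Mir449 cluster in each library. Right, each cluster's share of its own plus Mir34a counts (%) with 95% exact binomial intervals; the dotted line marks equal counts. The cluster on chromosome 9 lies at 61.5% and 65.5% and the Mir449 cluster at 45.4% and 37.6%, with no overlap between the intervals of replicates 1 and 2.

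Every member was counted at a lower CPM in replicate 2 than in replicate 1, to unequal extents. A two-sided exact binomial test was run on each of the 466 genes, with Benjamini-Hochberg adjustment over all of them. A gene was called when its adjusted p was under 0.05 and its log2 ratio of CPM + 1 reached 1 in size. The test compares these 2 libraries, not conditions. Of the 4 members that could be tested, 1 was called, against 5.79% of all tested genes (5.15% called lower and 0.644% called higher in replicate 2). Mir449b and Mir449c, with 4 summed counts each, were under the minimum.

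Mir449a was the called member, with a log2 ratio of -1.08 (95% exact interval without added CPM -1.24 to -0.94; adjusted p = 1.93e-49 by the exact binomial test). The call held with both strands, other pseudocounts and other count minimums, but not with other scalings or edgeR's exact test. Mir449a had a log2 ratio of -0.95 with edgeR's TMM scaling and -0.92 with DESeq2 size factors, inside the 2-fold limit. Under either scaling 4.72% of genes were called. edgeR's exact test, which takes the spread between the pools as error, gave Mir449a an adjusted p of 0.386. That test called 0.858% of genes, and 6.22% had an unadjusted p under 0.05. Among all tested genes, 4.29% had a lower ratio than Mir449a.

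The other tested members stayed inside the 2-fold limit. Mir34b had a log2 ratio of -0.81 (95% exact interval -1.31 to -0.43; adjusted p = 0.000135 by the exact binomial test), the widest interval, since it rests on 190 counts. Mir34a had -0.63 (-0.75 to -0.51; adjusted p = 3.86e-24 by the same exact test) and Mir34c -0.36 (-0.45 to -0.27; adjusted p = 1.94e-13 by the same exact test). With no fold limit all 4 passed, but so did 46.4% of tested genes, 33.3% in the same direction. edgeR's exact test gave an adjusted p of 1 for each of Mir34a, Mir34b and Mir34c.

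The tested members had a median log2 ratio of -0.72, beside -0.11 for all tested genes, of which 63.3% had a ratio under 0. TMM moved the median of all genes by 0.10 and DESeq2 size factors by 0.11. The share of genes under 0 became 51.7% and 47.4%, and the members' median -0.60 and -0.57. A scaling multiplies all CPM values of a library alike, but with 1 CPM added the log2 ratios of genes with few counts move less. The gap between the members and the median gene stayed nearly as it was. In whole organ RNA, fewer cells that make a miRNA and less of it per cell cannot be told apart.

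**Figure D4:**
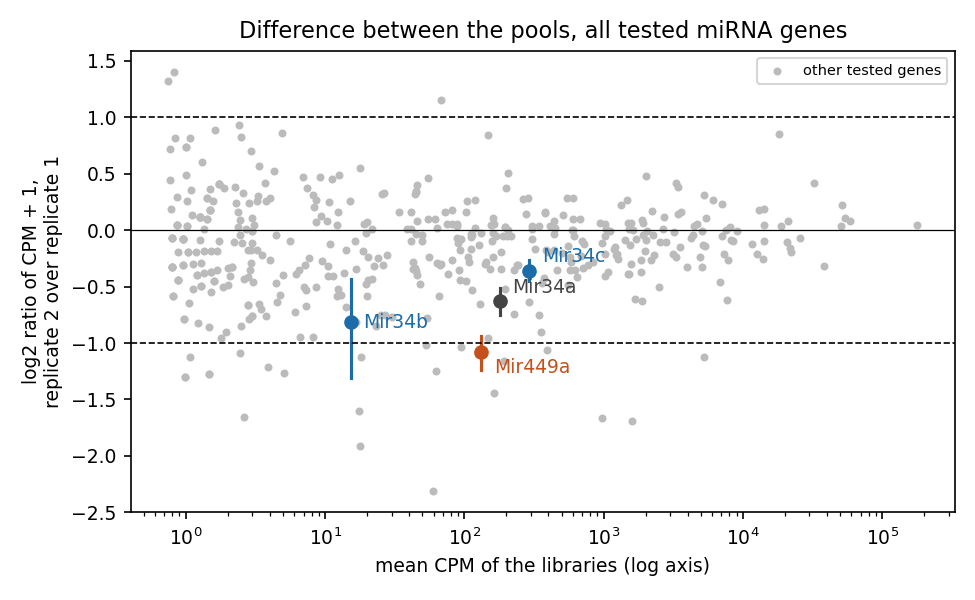
Log2 ratio of CPM + 1, replicate 2 over replicate 1, against mean CPM (log axis) for all tested miRNA genes (grey) and the 4 tested members (coloured, bars are 95% exact intervals); dashed lines mark the 2-fold limit. The members lie from -0.36 for Mir34c to -1.08 for Mir449a, which alone among them is beyond the limit.

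**Figure D5:**
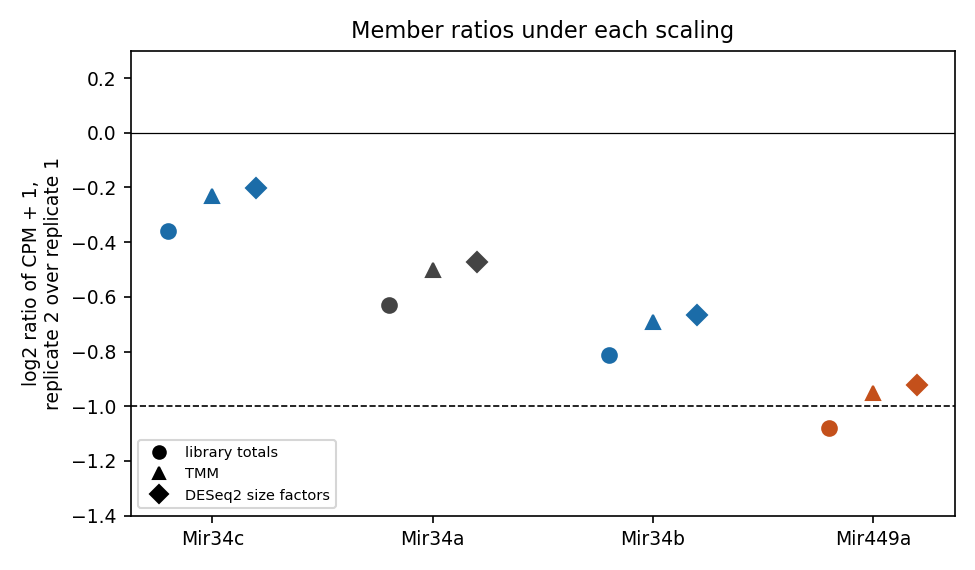
Log2 ratio of CPM + 1, replicate 2 over replicate 1, of the 4 tested members under library totals (circles), TMM (triangles) and DESeq2 size factors (diamonds); the dashed line is the 2-fold limit. Each scaling shifts all members nearly alike, and Mir449a is beyond the limit with library totals only.

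Some of the listed marker genes moved between the pools in the same direction as the family. Mir122, the hepatocyte miRNA, stood at 2445 CPM in replicate 1 and 757 CPM in replicate 2 and was called lower. The listed red cell genes, Mir144 and Mir451a, summed to 702 and 334 CPM, and both were called lower, against 5.15% of all tested genes. Mir486, the symbol used for the miRNA that the red cell list holds as Mir486a and Mir486b, was added after its values were seen. The other list symbols without a match were not followed up in this way. Mir486 had 152 and 74 counts and was called lower (log2 ratio -1.13), also with TMM (-1.01) but not with DESeq2 size factors (-0.98). Of the 6 Hox-embedded genes, 3 of 5 tested were called lower and the summed level went from 51979 to 38320 CPM, led by Mir10a. Mir196a-1 and Mir196a-2 of that list are numbered copies, and reads that matched several places were not assigned to genes. The stratified epithelium genes Mir203 and Mir205, which mark squamous lining such as that of the forestomach, summed to 17201 and 11806 CPM, with neither called. With TMM or DESeq2 size factors, 0 of the 2 red cell genes and 2 of the 5 Hox-embedded genes were called, against 4.72% of all tested genes, and Mir122 still was. The part of these markers in the family's difference was not tested.

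In the other lists no member was called. The miR-200 list of epithelium, led by Mir429, summed to 43502 and 43188 CPM, and the endothelial Mir126a stood at 26216 and 25041 CPM. The glandular list, led by Mir215, had 4176 and 4861 CPM, the smooth muscle list, nearly all Mir143, 178423 and 183398 CPM, and Mir223 of white blood cells 1247 and 1112 CPM. The male germ line list stands for a cell type in which miR-34 and miR-449 miRNAs are abundant. It had 14 counts in replicate 1 and 4 in replicate 2 over 7 genes, 4 of them with none, led by Mir741. The log2 ratio of the sum was -1.06, on these few counts. Mir741, the 1 gene of the list tested, had an adjusted p of 0.538 by the exact binomial test. The part of germ cells in the family's difference was not tested. Of 5 listed neuronal genes, 4 had no counts, and Mir9-3 had 19 and 18. Those 4 are numbered copies of Mir124a and Mir9, and reads that matched several places were not assigned to genes. Their counts of 0 therefore cannot show that these miRNAs were absent.

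Other genes linked to p53 by transcription or processing were set beside the miR-34 loci. Mir192, Mir194-1, Mir194-2, Mir215, Mir143, Mir145a, Mir200c and Mir141 also stand in the glandular, smooth muscle or epithelium list above. These lists are therefore not separate readings. Of a list of 12, 11 were listed and tested, and 0 were called in either direction by the exact binomial test, against 5.79% of all tested genes. With no fold limit, 9 of these 11 had an adjusted p under 0.05, 5 higher and 4 lower in replicate 2, against 46.4% of all tested genes. That background is unlike in depth, since more counts let smaller differences pass. The lowest mean in the list was 284 CPM (Mir194-1), beside a median of 45.1 CPM for all tested genes. edgeR's exact test called 0 of the 11, and 0 had an unadjusted p under 0.05. Their median log2 ratio was 0.01 (-0.11 for all tested genes), while Mir34a, Mir34b and Mir34c had -0.63, -0.81 and -0.36. Mir215, Mir194-1 and Mir16-1 had log2 ratios of 0.48, 0.28 and 0.22, and Mir200c, Mir143 and Mir192 of 0.05, 0.05 and 0.01. Mir141, Mir194-2, Mir15a, Mir107 and Mir145a had -0.04, -0.10, -0.18, -0.37 and -0.51. Mir194-1, Mir194-2 and Mir16-1 are numbered copies, and reads that matched several places were not assigned to genes. Their levels and ratios rest on the reads that could be placed and need not be those of the whole miRNA. No gene of the list had as low a ratio as Mir34a or Mir34b in these libraries, but Mir107 and Mir145a had lower ratios than Mir34c. The 95% exact interval of Mir34b (-1.31 to -0.43) takes in the ratio of Mir145a. The part of p53 in any of these ratios was not tested.

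The genes most like the leading member of each locus were taken by distance over the 2 values of log2(CPM + 1), which measures likeness of level in 2 libraries only. Nearest to Mir34a were Mir328 at 222 and 145 CPM, Mir496a at 231 and 161 CPM and Mir450b at 206 and 163 CPM. Nearest to Mir34c were Mir27a at 351 and 226 CPM, Mir598 at 313 and 296 CPM and Mir186 at 341 and 304 CPM. Nearest to Mir449a was Mir144, the red cell miRNA, at 171 and 79.7 CPM, followed by Mir30b at 196 and 101 CPM and Mir146 at 157 and 99.6 CPM. The distance was 0.05 for Mir328, 0.11 for Mir144 and 0.20 for Mir27a.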

How the data were processed

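Small RNA of mouse stomach was measured in 2 libraries of 1 group. The authors deposited whole-number read counts per miRNA gene for mm10 and GENCODE M4, per the deposited description files. Not given in the sources used here are the aligner and counter. The columns, which have no names, were read from their values: the first is the total of both strands, and the second, which holds nearly all counts of known miRNA genes, was taken as the sense strand. Lines that name no gene were left out of totals: reads matching several places (25.5% of reads in replicate 1 and 27.0% in replicate 2), unmapped reads (18.0% and 16.2%) and reads outside genes (2.92% and 2.26%).

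Symbols and coordinates came from GENCODE M21 on the same assembly (1894 of 1973 identifiers matched). Sequences came from RefSeq. Ratios have 1 CPM added; exact intervals are Clopper-Pearson or conditional. Genes named besides the members are the 3 nearest in level to each locus's highest member and genes of the marker and p53-linked lists; the list symbols Mir142, Mir486a, Mir486b, Mir9-1 and Mir605 matched no gene name, and Mir486 was added after its values were seen. The members and lists were chosen with earlier results of these data known. The test between libraries was tested on simulated data. Alternatives covered scaling, count minimum, fold limit, test, pseudocount, strand, denominator and leaving out a replicate. Tools were edgeR 4.0.16 and DESeq2 1.42.0 in R 4.3.3, and scipy 1.17.1, pandas 2.3.3, numpy 2.4.6 and matplotlib 3.10.9 in Python 3.11.15.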

Additional observations from a re-analysis of the deposited data

How the results depend on the processing

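The 34 recomputed log2 ratios of members between the libraries, over scaling, pseudocount, strand column and test, were all under 0; 3 of them, all of Mir449a, lost its call. Called members went from 1 to 0 with TMM, with DESeq2 size factors and with edgeR's exact test (29 of 466 genes had an unadjusted p under 0.05 there, Mir449a among them at 0.0182), and to 4 with no fold limit. Called genes went from 27 to 16 with a minimum of 100 summed counts, where fewer genes are tested, to 4 with edgeR's exact test and to 216 with no fold limit. Under the remaining settings they numbered 22 to 30. The family share of 0.0621% ± 0.0181 (SD, n = 2) became 0.132% of counts without the 10 most abundant genes and 0.0324% of all reads, by the change of denominator, and was 0.0493% to 0.0748% without either replicate. Without either replicate the cluster on chromosome 9 stood above Mir34a by 0.67 to 0.92 on the log2 scale, and the Mir449 cluster differed from it by -0.72 to -0.27. Ratios between the libraries cannot be formed without either replicate. Counting both strands gave 28 called genes and a family share of 0.0600%, and Mir449a remained the 1 called member. No paired analysis was possible because both libraries belong to 1 group. Depth limits Mir449b and Mir449c, with 4 counts each.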
